A study of Mus musculus with 3 samples.

Results

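The genes described here are 8 genes of the type 2 helper T cell (Th2) program and Cyp11a1, the steroidogenic enzyme found in activated Th2 cells. They were taken by gene symbol from the 23282 gene rows measured in every library: the transcription factor gene Gata3, the cytokine genes Il4, Il5, Il13 and Il24, the receptor genes Il4ra, Il1rl1 and Ccr8, and Cyp11a1. All 9 had a row of their own, and 8 had enough reads to enter the fit of 12770 rows. Il5 did not. The 9 genes were selected with values of these libraries already known, since Cyp11a1 and Il24 were among the genes with the greatest decreases in dialyzed medium. Their differences between media are therefore given as a description without a test.

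CD4 T cells of C57BL/6 mice, isolated from spleen and lymph nodes, were activated with antibody to CD3 and CD28 at 2 µg/ml and cultured for 72 hours. The 3 media were complete medium (CM, RPMI-1640 with 10% fetal bovine serum), dialyzed medium (DM, which the study's methods describe as RPMI without amino acids plus dialyzed serum) and DM with 30 µM methionine (DM+Met). The study reports that DM itself contained methionine, so DM+Met added methionine to a medium that was not free of it. No cytokine or blocking antibody that would steer the cells towards Th2 is named in the labels, so the cells were activated without stated polarization. Age and sex are not in the labels, and the study's methods describe young adult females unless stated otherwise. Each medium was represented by 2 libraries, which the study describes as biologically independent samples. How many mice gave the cells of a library is not stated.

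Th2 cells are the CD4 T cells that respond to worms and allergens. IL-4 acts through its receptor and STAT6 to induce GATA3, and GATA3 in turn opens and activates the locus that holds Il4, Il13 and Il5. IL-5 sustains eosinophils, IL-13 acts on epithelium and smooth muscle, and IL-24 is a cytokine of the IL-10 family that is also made by Th2 cells. Cyp11a1 encodes the mitochondrial enzyme that cuts the side chain of cholesterol to give pregnenolone, the first step in making steroid hormones.

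Promoters are shown for the 3 cytokine genes that share a locus and for Cyp11a1. These genes are the main subjects of the values that follow. Each line gives the 250 bases before an annotated start, read 5′ to 3′ on the strand of the gene, from RefSeq on GRCm38.p6. This is the assembly that mm10, the build in the submitters' processing notes, refers to. Capitals mark matches, on either strand, to a GATA factor motif (NGATAN, with A or T first and A or G last), a STAT6 motif (TTCNNNNGAA) or the NFAT core (GGAAA). The windows are chr11:53618666-53618915 on the minus strand for Il4, chr11:53634703-53634952 on the minus strand for Il13, chr11:53720544-53720793 on the plus strand for Il5, and chr9:57997774-57998023 (outer start) and chr9:58014702-58014951 (inner start) on the plus strand for Cyp11a1.
Il4: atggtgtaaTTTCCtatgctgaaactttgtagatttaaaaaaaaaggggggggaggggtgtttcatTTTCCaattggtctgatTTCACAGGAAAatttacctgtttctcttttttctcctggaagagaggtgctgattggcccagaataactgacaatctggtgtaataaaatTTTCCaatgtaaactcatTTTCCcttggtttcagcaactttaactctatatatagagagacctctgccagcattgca
Il13: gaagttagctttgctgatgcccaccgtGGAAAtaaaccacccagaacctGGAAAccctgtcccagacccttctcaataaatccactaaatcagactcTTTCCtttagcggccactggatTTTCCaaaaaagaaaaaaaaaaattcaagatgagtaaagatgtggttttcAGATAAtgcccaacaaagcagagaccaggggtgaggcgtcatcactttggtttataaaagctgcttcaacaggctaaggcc
Il5: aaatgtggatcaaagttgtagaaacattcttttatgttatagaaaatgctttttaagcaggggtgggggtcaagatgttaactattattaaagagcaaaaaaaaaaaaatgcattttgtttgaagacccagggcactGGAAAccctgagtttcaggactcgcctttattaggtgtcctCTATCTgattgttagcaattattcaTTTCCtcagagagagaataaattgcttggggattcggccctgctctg
Cyp11a1, outer start: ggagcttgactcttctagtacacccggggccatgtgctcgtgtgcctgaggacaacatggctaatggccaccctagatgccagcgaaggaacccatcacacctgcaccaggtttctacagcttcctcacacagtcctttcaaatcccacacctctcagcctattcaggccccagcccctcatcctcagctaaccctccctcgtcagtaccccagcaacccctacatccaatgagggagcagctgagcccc
Cyp11a1, inner start: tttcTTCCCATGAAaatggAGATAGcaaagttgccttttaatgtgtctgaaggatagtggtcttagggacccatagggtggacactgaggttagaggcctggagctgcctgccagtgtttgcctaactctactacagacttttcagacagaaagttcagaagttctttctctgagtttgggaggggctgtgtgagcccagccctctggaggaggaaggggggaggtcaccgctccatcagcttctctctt

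The Il4 window held 5 NFAT cores and 1 STAT6 match, which begins 167 bases before the start and overlaps an NFAT core. It belongs to the outer start of Il4, and the window of an inner start held a GATA match at 80 bases and no NFAT core or STAT6 match. The Il13 window held 4 NFAT cores and a GATA match at 81 bases, and the Il5 window held 2 NFAT cores and a GATA match at 72 bases. No motif of the 3 was found at the outer start of Cyp11a1. Its inner start had a STAT6 match at 246 bases and a GATA match at 231 bases. An AP-1 motif (TGANTCA) and the motif of steroidogenic factor 1 (AAGGTCA), the factor that drives Cyp11a1 in steroid-making glands, were searched too and were found in none of the 11 windows of the members. Windows were found for 8 of the 9 members, all but Il24, and some genes had more than 1. A GATA match stood in 7 of the 11 windows, an NFAT core in 7 and a STAT6 match in 2. Among the 32851 windows of all genes the shares were 26.5% for GATA, 55.6% for NFAT, 5.85% for STAT6, 6.75% for AP-1 and 4.08% for steroidogenic factor 1. These matches describe the letters of the windows and do not show binding, and the start used in these cells was not measured.

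Depth ranged from 8504742 to 12377285 reads per library. The libraries were made with a kit that reads the 3′ end of a transcript, so a transcript yields reads independently of its length, and levels of different genes can be set side by side as CPM (reads relative to a common library size, scaled by TMM). Over the 12770 tested rows, DM library 1 correlated with DM library 2 at r = 0.919, less closely than it did with DM+Met library 1 (r = 0.925), against 0.938 for the pair of CM libraries and 0.973 for that of DM+Met. Genes are not independent of each other, so these are descriptions. DM library 1 therefore stood somewhat apart, and the members' differences between DM and CM are also given without it. The ribosomal precursor Rn45s made up 15.5% to 20.1% of the DM+Met reads and 31.0% to 38.3% of those from CM and DM. The scaling to TMM was the authors' own.

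Cyp11a1 and Il24 were abundant in CM and low in both dialyzed media. Cyp11a1 had 724 and 582 reads with CM, 41 and 9 with DM, and 33 and 0 with DM+Met. Il24 had 612 and 415 reads with CM, 18 and 12 with DM, and 14 and 3 with DM+Met. For each gene the lowest CM library lay far above all 4 libraries of the dialyzed media, and DM and DM+Met overlapped. A library with 0 reads still allows up to 3, which is 0.323 to 0.469 on the log2(CPM + 1) scale.

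In CM, Cyp11a1 stood at 78.5 ± 5.61 CPM (SD, n = 2), above 84.7% of the tested rows, and Il24 at 61.4 ± 11.7 CPM, above 80.5%. The Cyp11a1 level was 2.49 ± 2.39 CPM with DM and 1.38 ± 1.95 with DM+Met. The Il24 level was 1.45 ± 0.550 CPM with DM and 0.712 ± 0.651 with DM+Met. The ratio of mean CPM between CM and DM was 31.6 for Cyp11a1 and 42.4 for Il24. Between CM and DM+Met it was 56.8 and 86.3, ratios that rest on few DM+Met reads.

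On the log2(CPM + 1) scale, which compresses changes that end near 0, the difference between DM and CM was −4.70 (SE 0.73) for Cyp11a1 and −4.68 (SE 0.56) for Il24. The DM libraries disagreed about Cyp11a1, at 2.37 and 0.84 on this scale. Without DM library 1 the difference was −5.47, and without DM library 2 it was −3.94. For Il24 these values were −4.91 and −4.45. DM+Met and CM differed by −5.36 (SE 0.73) for Cyp11a1, with −6.31 in the absence of DM+Met library 1 and −4.40 in that of DM+Met library 2. The Il24 difference was −5.23 (SE 0.56), and these values were −5.63 and −4.83. With methionine neither gene was, on average, nearer to its CM level than in DM. The difference between DM+Met and DM was −0.65 (SE 0.73) for Cyp11a1 and −0.55 (SE 0.56) for Il24, within the spread of the libraries. The Cyp11a1 difference turned positive, to 0.11 without DM library 1 and to 0.30 without DM+Met library 2, so no direction can be read from it.

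**Figure D1:**
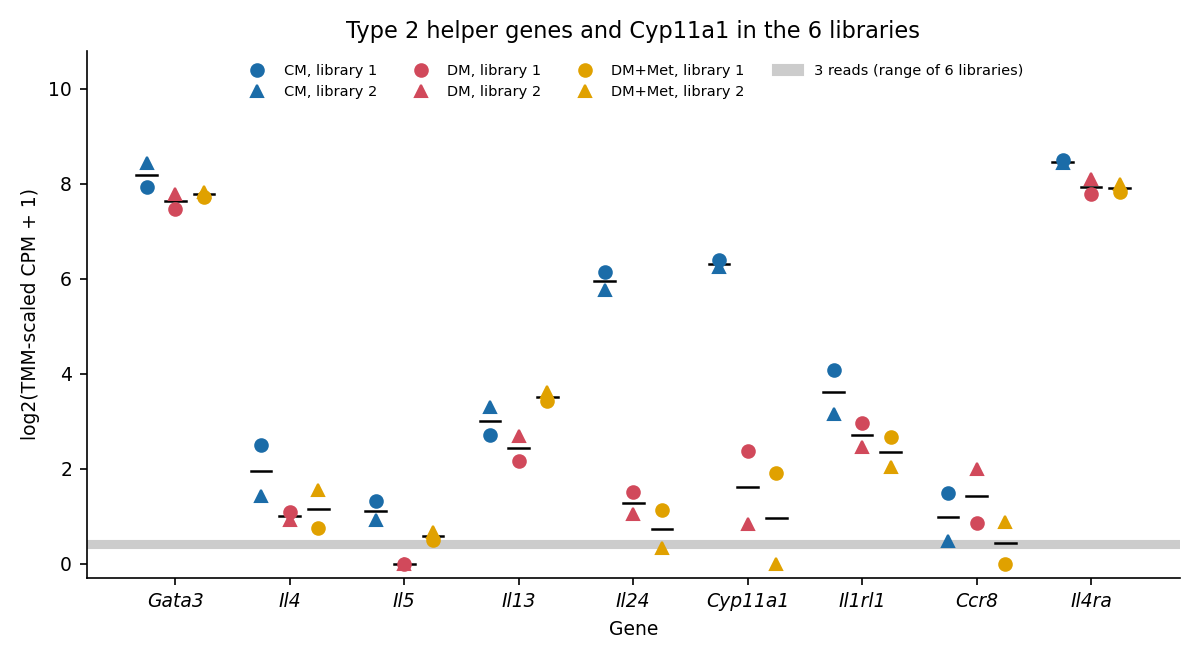
Level of each of the 9 genes in each library, as log2(TMM-scaled CPM + 1) on the vertical axis; circles and triangles are libraries 1 and 2 of a medium, short black lines are means of 2, and the grey band is the level of 3 reads. Il24 and Cyp11a1 are between 5.76 and 6.38 in CM and no higher than 2.37 elsewhere, while Gata3 and Il4ra are at 7.47 or higher in every library.

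The cytokine genes of the shared locus were read at much lower levels. Il4 had 41 and 13 reads with CM, 11 and 10 with DM, and 8 and 23 with DM+Met. Il5 had 13 and 7 reads with CM, none in either DM library, and 5 and 7 with DM+Met. Il13 had 49 and 69 reads with CM, 34 and 62 with DM, and 116 and 133 with DM+Met. Each of these 3 genes was lower in both DM libraries than in both CM libraries, for Il13 by a narrow margin (2.70 against 2.72 on the log2 scale). With methionine their places relative to the other media varied, on few reads, and differences between the 3 genes were not tested. Il13 exceeded both DM and CM in each DM+Met library. Il5 was above DM and did not exceed CM, and Il4 overlapped both other media.

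The Il4 level was 3.17 ± 2.12 CPM (SD, n = 2) with CM, 1.002 ± 0.169 with DM and 1.30 ± 0.892 with DM+Met. Its log2 difference between DM and CM was −0.96 (SE 0.62), and CM library 1 made up much of it. Without that library the difference was −0.42, and without CM library 2 it was −1.50. Leaving out DM library 1 gave −1.05. Il5 was too sparse for a fitted difference. Against a floor of 3 reads per DM library, its mean level was 4.16-fold higher in CM and 1.76-fold higher in DM+Met. Only the DM level was given a counting limit. The CM and DM+Met means were taken as measured from few reads, so these ratios are not lower bounds. Reads of this kit without molecular identifiers are also not independent molecules.

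Among the 8 fitted members, Il13 had the highest level in DM+Met relative to the other media. It stood at 7.21 ± 2.30 CPM with CM, 4.47 ± 1.42 with DM and 10.4 ± 1.03 with DM+Met. The log2 difference was −0.58 (SE 0.51) between DM and CM, 1.09 (SE 0.51) between DM+Met and DM, and 0.51 (SE 0.51) between DM+Met and CM. Leaving out DM library 1 brought the difference between DM and CM to −0.31. It brought the difference between DM+Met and DM to 0.82, and leaving out DM library 2 brought it to 1.35. With scaling by library totals in place of TMM it was 1.41. That scaling moved the median of all genes in the same comparison from 0.01 to 0.34, so relative to all genes the Il13 difference was nearly the same.

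Gata3, which encodes the lineage-defining factor of Th2 cells, was among the abundant transcripts in all media. Its level was 243 and 345 CPM with CM, 176 and 220 with DM, and 210 and 226 with DM+Met. The lowest CM library was above every library of the dialyzed media, by a margin smaller than the gap between the CM libraries. The log2 difference was −0.55 (SE 0.20) between DM and CM, −0.41 (SE 0.20) between DM+Met and CM, and 0.15 (SE 0.20) between DM+Met and DM. Leaving out CM library 2 brought the difference between DM and CM to −0.30, and leaving out DM library 1 brought it to −0.39. Scaling by library totals brought that between DM+Met and CM to −0.01, where the median of all genes was 0.41. Set against the ratio of 31.6 for Cyp11a1, the CPM ratio of Gata3 between CM and DM was 1.48.

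Among the receptors, Il4ra encodes the chain shared by the IL-4 and IL-13 receptors. It was the most abundant member, at 351 ± 11.2 CPM (SD, n = 2) with CM, 245 ± 39.2 with DM and 239 ± 18.2 with DM+Met. On the log2 scale it stood at 8.49 and 8.43 with CM, at 7.77 and 8.10 with DM, and at 7.83 and 7.99 with DM+Met, so CM did not overlap the other media. The difference was −0.52 (SE 0.16) between DM and CM, or −0.36 without DM library 1, and −0.55 (SE 0.16) between DM+Met and CM. Scaling by library totals brought the latter to −0.16, where the median of all genes was 0.41. DM+Met and DM differed by −0.03 (SE 0.16).

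Il1rl1 encodes ST2, the receptor for IL-33, in a membrane form and a secreted form that counts per gene do not separate. It had 140 and 61 reads with CM, 66 and 51 with DM, and 64 and 37 with DM+Met. CM library 1 was far higher than the other 5, and CM library 2 was close to the dialyzed media. The log2 difference was −0.91 (SE 0.56) between DM and CM, or −0.43 without CM library 1 and −1.15 without DM library 1. Ccr8, a chemokine receptor of Th2 and regulatory T cells, had 16 and 3 reads with CM, 8 and 34 with DM, and 0 and 10 with DM+Met. It was the only member whose CM and DM libraries overlapped. Its difference between DM and CM was 0.45 (SE 0.67), and 1.02 without DM library 1. It was negative without DM library 2 (−0.12) or CM library 2 (−0.07), so no direction can be read from it.

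**Figure D2:**
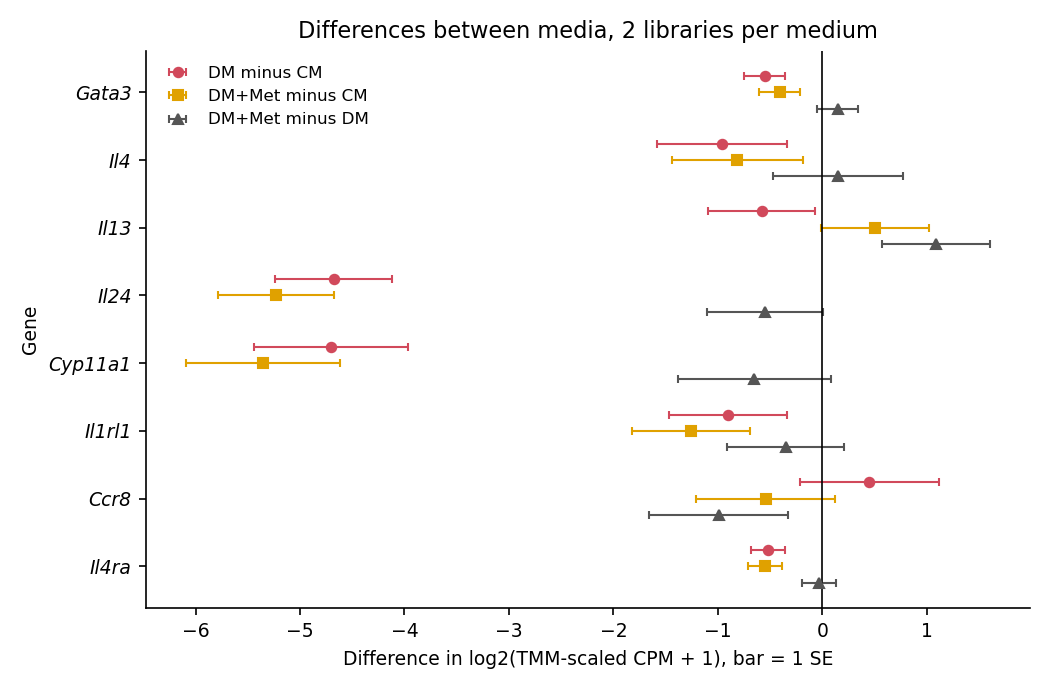
Difference in log2(TMM-scaled CPM + 1) between media for the 8 members that entered the fit, with bars of 1 SE; circles are DM minus CM, squares DM+Met minus CM and triangles DM+Met minus DM. Il24 and Cyp11a1 lie between −5.36 and −4.68 in both comparisons with CM, and the other members lie between −1.26 and 0.51 there; the triangle of Il13 is the highest, at 1.09.

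Both DM libraries were below both CM libraries for 8 of the 9 members. Of all tested rows, 26.2% were below without overlap in this comparison. The limma fit, at an adjusted p below 0.05, put 2 of the 8 fitted members (Cyp11a1 and Il24) lower in DM and none higher. Of all rows it put 9.07% lower and 7.8% higher. Without CM library 1, DM library 1 or DM library 2 the count was 1, Il24. Because the members were chosen on this comparison, nothing is read from these counts. Il5, which was not fitted, is outside the counts of called members.

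DM+Met against DM uses the same DM libraries as the comparison above. The libraries of DM+Met were above both of DM without overlap for 2 of the 9 members, Il5 and Il13, and 20.4% of all tested rows were so. None of the fitted members had an unadjusted limma p below 0.05, which 1238 of the 12770 rows had. No member passed the adjusted threshold. Over all rows 0.0392% were higher and 0.0157% lower, a total of 7, so the fit called almost nothing between these media. In limma-voom on the recovered reads the count of members was also 0. Against CM, 6 members were lower in both DM+Met libraries, where 28.7% of all rows were, and 1, Il13, was higher, where 32.2% were. The fit called 3 of 8 lower (Cyp11a1, Il24 and Il4ra) and 0 higher, beside 8.36% and 6.92% of all rows. The Il4ra call was lost, leaving 2, with either scaling by library totals, no filter, a pseudocount of 0.5, no intensity trend or a replicate block, and without any 1 of the CM or DM+Met libraries. This comparison shares its CM libraries with DM against CM.

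The other genes of Th2 control were tested in the same fit, which called 9.07% of all rows lower and 7.8% higher in DM. Regulators of the program split between the directions. Of 24 regulators tested, 7 fell in DM (Maf, Junb, Bhlhe41, Stat5a, Rbpj, Zbtb32 and Pparg), 8 rose (Irf4, Nfatc1, Notch1, Notch2, Ikzf1, Tcf7, Ets1 and Socs2) and 9 did not pass. The median log2 difference of the list was −0.14, and that of all rows was 0.07.

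Zbtb32, which encodes a repressor that interacts with GATA3, had 456 and 364 reads with CM and 1 and 21 with DM. It fell by 4.82 on the log2 scale (SE 0.62, limma adjusted p 0.00132). Notch2, a receptor of the Notch pathway that promotes Gata3 and Il4, rose by 3.17 (SE 0.25, limma adjusted p 9.73e-05), from 108 and 72 reads to 960 and 1252. Bhlhe41, a Th2 transcription factor, fell by 3.12 (limma adjusted p 0.011), and Pparg, a nuclear receptor that supports Th2 function, fell by 2.69 (limma adjusted p 0.0281). The calls of Zbtb32 and Notch2 held in every fit without 1 library. That of Bhlhe41 was lost without CM library 1, DM library 2 or either DM+Met library, and that of Pparg without any 1 of the 6. Maf, an activator of Il4, fell by 0.88 (SE 0.19, limma adjusted p 0.0121). Stat6 itself, with 1004 and 707 reads with CM and 1438 and 1431 with DM, differed by 0.42 (SE 0.18) and did not pass (limma adjusted p 0.15). The most abundant regulators were Satb1, at 0.15 (SE 0.13, limma adjusted p 0.464), and Ets1, which rose by 0.62 (SE 0.16, limma adjusted p 0.0285) and lost its call in each fit without 1 library.

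Cytokines and ligands linked to type 2 responses also moved in both directions. Of 18 listed, 9 were tested, 2 fell in DM and 4 rose. Il10, of the same gene family and chromosomal cluster as Il24, had 372 and 205 reads with CM and 0 and 15 with DM, and fell by 4.49 (SE 0.71, limma adjusted p 0.00328). Its call was lost without CM library 1 or DM library 1. Il21, a cytokine of follicular helper cells, fell by 3.79 (SE 0.56, limma adjusted p 0.00237). Il9, the cytokine of Th9 cells, had 0 and 8 reads with CM, 178 and 422 with DM, and 1422 and 1118 with DM+Met. It rose by 4.25 (SE 0.49, limma adjusted p 0.000787). Between DM+Met and DM its difference was 1.98 and did not pass (limma adjusted p 0.266). Ccl17, which attracts CCR4-bearing Th2 cells, rose by 4.66 (SE 0.47, limma adjusted p 0.000388), from 1 and 0 reads in CM to 263 and 277 in DM. Ccl22, a second CCR4 ligand, rose by 0.95 (SE 0.29, limma adjusted p 0.0486), a call that was lost in each fit without 1 library. Il6, which also rose, was at 0 reads in both CM libraries. Il2, Il3, Il25, Il33, Il31 and Tslp were among the 9 with too few reads to test.

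Most receptors and signaling genes did not pass the test. Of 22 tested, 1 fell (Il7r, by 0.72, SE 0.16, limma adjusted p 0.0145) and 1 rose (Csf2rb, the shared chain of the receptors for IL-3, IL-5 and GM-CSF, by 1.97, SE 0.47, limma adjusted p 0.0198). Both calls were lost in each fit without 1 library. Il2rg, which pairs with the IL-4 receptor chain, differed by 0.03 (SE 0.16, limma adjusted p 0.913), and Jak1 by 0.47 (SE 0.18, limma adjusted p 0.0953). Il1rap, the co-receptor of ST2, had 1 read in each CM library and 33 and 16 in DM, and did not pass (limma adjusted p 0.0969). Ccr4, another chemokine receptor of Th2 cells, differed by −0.61 (SE 0.31, limma adjusted p 0.202).

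No other tested gene of the steroid pathway passed the test as lower in DM. Of 23 genes listed, 13 were tested, none fell in DM and 2 rose, with a median difference of 0.18 beside 0.07 for all rows. Of the genes that act after pregnenolone, Hsd3b1, Hsd3b2, Cyp17a1, Cyp21a1, Cyp11b1 and Cyp11b2 were at 0 reads in every library, and Hsd3b6 had 1 read in all. Others of them, Akr1c18 and Hsd11b1, were read in every library. Akr1c18 had 168 and 132 reads with CM, 163 and 128 with DM, and 357 and 441 with DM+Met. It did not pass between DM and CM (limma adjusted p 0.507) or between DM+Met and DM (limma adjusted p 0.336). Hsd11b1 had 29 to 73 reads and did not pass between DM and CM (limma adjusted p 0.875). The electron donors of Cyp11a1, Fdx1 and Fdxr, were read in each library and differed by −0.61 (SE 0.40, limma adjusted p 0.324) and −0.89 (SE 0.35, limma adjusted p 0.112). Between DM+Met and CM, Fdx1 fell by 1.38 (SE 0.40, limma adjusted p 0.0439). Por, an electron donor of other cytochrome P450 enzymes, differed by −0.64 between DM and CM (SE 0.23, limma adjusted p 0.0849). Star, which carries cholesterol into mitochondria, had 27 reads in each CM library and 81 and 206 in DM, and did not pass (limma adjusted p 0.0572). Tspo differed by −0.38 (SE 0.23, limma adjusted p 0.276). Nr3c1, the glucocorticoid receptor, rose by 1.12 (SE 0.19, limma adjusted p 0.00467), a call that held in every fit without 1 library. Cyp19a1, aromatase, had 0 reads in both CM libraries, 52 and 51 with DM, and 0 and 7 with DM+Met. Its rise of 2.56 (SE 0.56, limma adjusted p 0.0138) lost its call without CM library 1, CM library 2 or DM+Met library 1.

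Genes of the other helper lineages were tested in the same fit, where 9.07% of all rows were called lower and 7.8% higher in DM. Of 15 Th1 genes, 5 fell (Tbx21, Ifng, Il12rb1, Il12rb2 and Runx3) and 1 rose (Ifngr1). Tbx21, which encodes the Th1 factor T-bet, had 708 and 515 reads with CM and 137 and 33 with DM, and fell by 3.27 (SE 0.61, limma adjusted p 0.00691). Ifng fell by 2.93 (SE 0.67, limma adjusted p 0.0176), and Il12rb2 by 2.79 (SE 0.57, limma adjusted p 0.0108). Runx3 fell by 1.40 (SE 0.14, limma adjusted p 0.000457), and its call held in every fit without 1 library. The Tbx21 call was lost without either CM library or DM library 2, and the Ifng and Il12rb2 calls held in 1 such fit each. Ifngr1 rose by 0.91 (SE 0.17, limma adjusted p 0.00707), a call lost without CM library 1 or DM library 1.

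Of 9 Th17 genes tested, 5 fell and 2 rose. Il17a fell by 3.44 (SE 0.62, limma adjusted p 0.00584), from 187 and 64 reads to 2 and 5. Il23r fell by 2.17 (SE 0.55, limma adjusted p 0.0256), Ahr by 1.91 (SE 0.51, limma adjusted p 0.0308) and Stat3 by 0.54 (SE 0.14, limma adjusted p 0.0313). Ccr6 rose by 1.97 (SE 0.40, limma adjusted p 0.0104), and Rora, which encodes a factor of Th17 and type 2 cells, rose by 0.87 (SE 0.21, limma adjusted p 0.022). Of these, the calls of Il23r, Ahr and Stat3 were lost in each fit without 1 library. The Il17a call was lost without CM library 1 or either DM library, the Ccr6 call without any DM or DM+Met library, and the Rora call without any library but DM library 1.

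Among 8 genes of follicular helper and regulatory T cells, 2 rose and 1 fell. Ikzf2, which encodes Helios, rose by 3.31 (SE 0.17, limma adjusted p 1.44e-05), from 267 and 227 reads to 3296 and 3122. Lrrc32 rose by 2.41 (SE 0.20, limma adjusted p 0.000142), and both calls held in every fit without 1 library. Pou2af1 fell by 2.16 (SE 0.48, limma adjusted p 0.0152), a call that held only without DM library 2. Il2ra, the most abundant of them, differed by 0.10 (SE 0.14, limma adjusted p 0.645). Foxp3 had 305 and 126 reads with CM, 505 and 306 with DM, and 1755 and 2006 with DM+Met. It did not pass between DM and CM (limma adjusted p 0.285). In DM+Met it was higher than in CM by 2.68 (SE 0.38, limma adjusted p 0.00168). Its difference of 2.05 between DM+Met and DM (SE 0.38) did not pass (limma adjusted p 0.158).

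**Figure D3:**
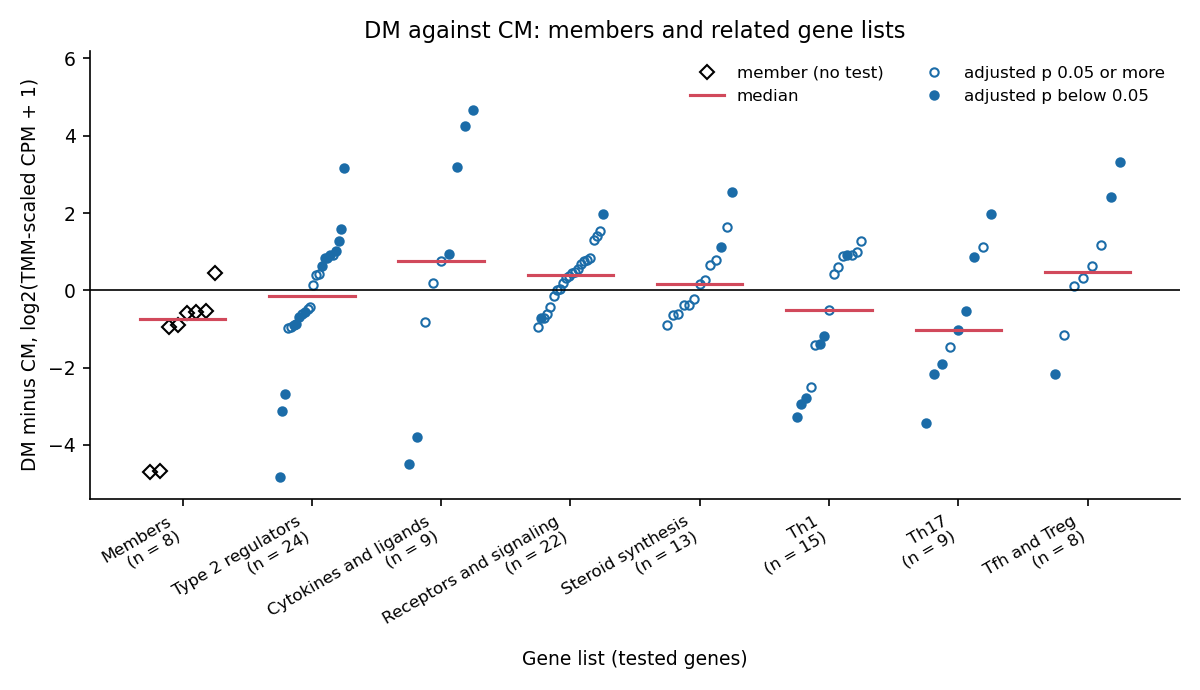
Difference between DM and CM in log2(TMM-scaled CPM + 1) for the fitted members (diamonds, no test) and for the tested genes of 7 lists (circles, filled where the limma adjusted p is below 0.05), each list sorted from left to right; red lines are medians. Filled circles stand above and below 0 in every list except that for steroid synthesis, where both are above.

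Over the 7 lists, 21 of 100 tested genes fell in DM and 20 rose, beside 9.07% and 7.8% of all rows. The total of 41 came to 12 without CM library 1, 19 without CM library 2, 19 without DM library 1, 22 without DM library 2, 17 without DM+Met library 1 and 18 without DM+Met library 2. With methionine none of the 100 passed against DM in limma, and limma-voom called 2, beside 21 of all rows. An unadjusted limma p below 0.05 was found for 15 of the 100, beside 1238 of the 12770 rows. Against CM, 17 were lower and 21 higher in DM+Met, beside 8.36% and 6.92% of all rows. The lists were written by hand with earlier results of these data known.

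The members lie at 7 places in the genome, given here on GRCm38.p6. Il4 (chr11:53612460-53618665, minus strand), Il13 (chr11:53631323-53634702, minus strand) and Il5 (chr11:53720794-53725103, plus strand) share a cluster, with Rad50 between Il13 and Il5. Gata3 is at chr2:9857078-9887953 (minus strand), Il24 at chr1:130882074-130887411 (minus strand) and Cyp11a1 at chr9:57998024-58027031 (plus strand). Il1rl1 is at chr1:40404864-40465418, Ccr8 at chr9:120092133-120094906 and Il4ra at chr7:125552271-125579474, all on the plus strand.

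The 3 nearest protein-coding genes on each side of each member gave 43 neighbours, of which 30 were tested. Between DM and CM, 6 fell and none rose, beside 9.07% and 7.8% of all rows, with a median difference of −0.01. They were Il10 by Il24, Sema7a by Cyp11a1, Kif3a by Il4, Nsmce1 by Il4ra, Atp5c1 by Gata3 and Rpsa by Ccr8. Sema7a, a semaphorin gene that lies 35159 bases from Cyp11a1, had 336 and 330 reads with CM and 85 and 143 with DM, and fell by 1.84 (SE 0.38, limma adjusted p 0.0106). Ccdc33, only 1642 bases from Cyp11a1 and on its other side, was at 0 reads in every library. Il10 lies 132434 bases from Il24. Between them are Il20, with 0 reads in every library, and Il19, with 21 reads in DM library 1 and 0 in the others. Fcmr, 1284 bases away on the other side of Il24, differed by 0.14 (SE 0.46, limma adjusted p 0.867).

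In the cytokine cluster, Kif3a, 8212 bases from Il4, fell by 1.38 (SE 0.29, limma adjusted p 0.0114). Rad50, whose gene body holds control elements of the Th2 cytokines, differed by −0.26 (SE 0.25, limma adjusted p 0.509), and Irf1, beyond Il5, by −0.15 (SE 0.16, limma adjusted p 0.566). Nsmce1 fell by 1.21 (SE 0.25, limma adjusted p 0.00995), Atp5c1 by 0.94 (SE 0.20, limma adjusted p 0.0135) and Rpsa by 0.83 (SE 0.14, limma adjusted p 0.00487). The count of 6 came to 0 without CM library 1, 2 without CM library 2, 3 without either DM library and 4 without either DM+Met library. Il18r1, 134 bases from Il1rl1, had 122 and 76 reads with CM and 318 and 184 with DM, and its difference of 0.93 (SE 0.40) did not pass (limma adjusted p 0.139). None of the 30 passed between DM+Met and DM, where 5 had an unadjusted limma p below 0.05, beside 1238 of the 12770 rows. Strand in the counting is not given in the sources used here, so overlapping genes cannot be separated.

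**Figure D4:**
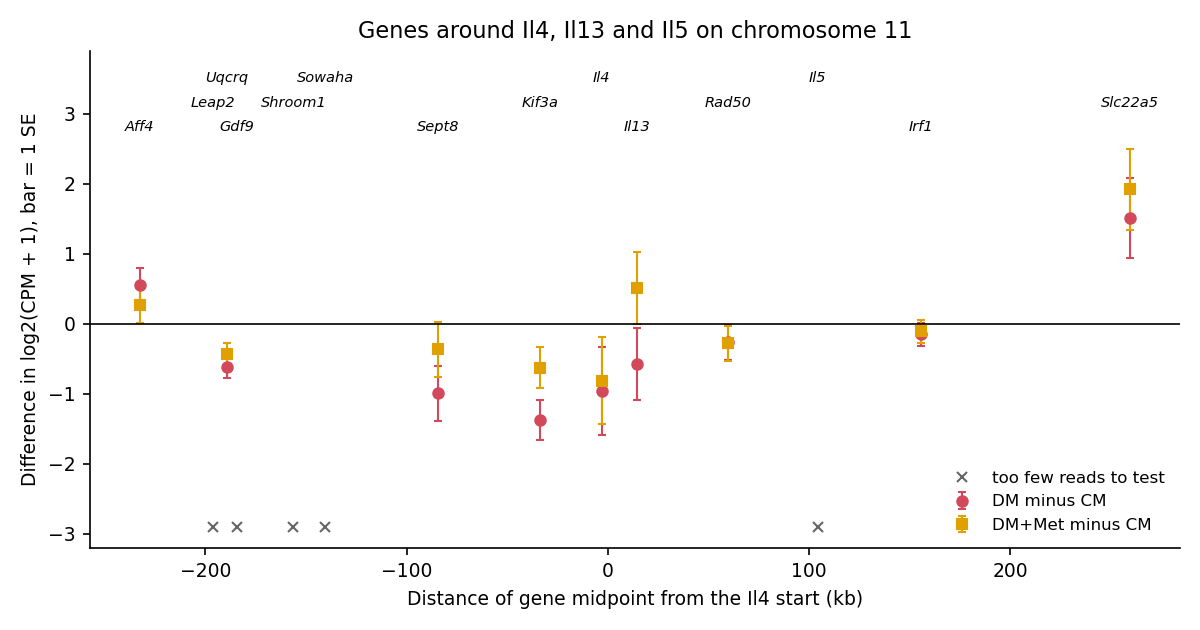
Difference in log2(TMM-scaled CPM + 1) from CM, with bars of 1 SE, for genes around the type 2 cytokine cluster, placed by the distance of the gene's midpoint from the Il4 start in kilobases; crosses mark genes with too few reads to test. Rad50 and Irf1 lie close to 0 in both comparisons, at −0.26 and −0.15 for DM, and Il13 is on opposite sides of 0 for DM (circles) and DM+Met (squares).

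Other cells can also express members, mast cells and basophils among them for Il4, Il13 and Il1rl1. Of 15 markers of mast cells, basophils and eosinophils, Mcpt8, Prss34, Fcer1a and Epx were at 0 reads in every library. Only 3 were tested, and none passed between DM and CM. Cd200r3 had 0 reads in both CM libraries, 32 and 24 with DM, and 30 and 2 with DM+Met (limma adjusted p 0.0769 for DM against CM). Ms4a2, not tested, had 0 reads in both CM libraries, 0 and 2 with DM, and 7 and 5 with DM+Met. Kit differed by −1.05 between DM and CM (SE 0.75, limma adjusted p 0.367). The summed level of the list was 7.94 to 15.6 CPM in CM, 7.14 to 13.2 in DM and 5.54 to 10.6 in DM+Met, most of it in CM from Kit, at 10.4 CPM. The 8 T cell markers, Cd4 and the CD3 genes included, were read in all libraries and summed to 1850 to 1991 CPM in CM, 2290 to 2754 in DM and 2508 to 2569 in DM+Met. Of them Cd2, Cd5 and Cd3g rose in DM.

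Markers of B cells summed to 86.3 to 95.3 CPM in CM, 65.2 to 72.5 in DM and 58.8 to 71.4 in DM+Met, with Pax5 at 0. The 5 tested had a median difference of −0.35 between DM and CM and did not move alike. Blnk fell by 2.05 (SE 0.52, limma adjusted p 0.0253). Ms4a1 had 80 and 43 reads with CM and 144 and 179 with DM, and did not pass (limma adjusted p 0.135). Markers of CD8 T cells and NK cells summed to 74.8 to 82.4, 43.2 to 45.2 and 40.8 to 52.7 CPM, and Cd8a fell by 1.72 in DM (SE 0.47, limma adjusted p 0.0323). Most of that sum came from Cd8a and Cd8b1, and the median difference of the 6 tested genes of the list was 0.34. Klrb1c, a receptor gene of NK cells, had 0 reads in both CM libraries and 17 and 22 with DM (limma adjusted p 0.0863). Klrk1, another such gene, differed by 1.30 (SE 0.63, limma adjusted p 0.184). Markers of myeloid cells summed to 48.4 to 54.0, 55.4 to 64.3 and 68.9 to 97.4 CPM. The 10 tested had a median difference of 0.52 between DM and CM, and only Lyz2 passed, rising by 2.13 (SE 0.59, limma adjusted p 0.0355). Tyrobp went the other way, from 115 and 99 reads with CM to 0 and 63 with DM, and did not pass (limma adjusted p 0.062). The B cell sum, though not Ms4a1, and the levels of Cd8a and Cd8b1 were thus higher in CM than in DM. Both DM libraries were also below both CM libraries for 8 of the 9 members, which were chosen on this comparison, and for 26.2% of all tested rows. The part of these markers in the members' differences was not tested. In bulk RNA, fewer cells of a type and less RNA per cell cannot be told apart.

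Across the 6 libraries, Cyp11a1 and Il24 had the most similar patterns of any pair of members (Pearson r = 0.98), whereas Il13 and Ccr8 had the least similar (r = −0.50). Il13 correlated with Cyp11a1 at −0.14 and with Gata3 at 0.48. The points share libraries and media, so these values are a description. Cyp11a1 and Il24 were also both known at selection as great decreases in DM, so a high r between them follows from that choice. Of 7469 other genes with a mean of at least 10 CPM, Insig1 (r = 0.995) and Hspa14 (r = 0.994) were most like Cyp11a1, and Wbp5 (r = 0.999) and Fam107b (r = 0.998) most like Il24. Zswim4 (r = 0.975) and Cd4 (r = 0.973) were most like Il13, with Cd4 at 7.62 and 7.84 with CM, 7.35 and 7.50 with DM, and 7.89 and 8.13 with DM+Met on the log2 scale. Nisch and Prkcsh were most like Gata3, Taldo1 and Ints3 most like Il4, Tex9 and Cd79b most like Il1rl1, Uhrf2 and Ssbp1 most like Ccr8, and Arhgap18 and Pgrmc2 most like Il4ra, at r from 0.983 to 0.999. The mean of the 8 standardized members was most like Rrm2, Rab1, Arpc5l, Ran, Hint1, Tacc3, Naca, Cenpw, Uhrf1 and Chek2, at r from 0.990 to 0.995. Rrm2, a subunit of ribonucleotide reductase, was at 6.41 and 6.10 with CM, 3.23 and 3.89 with DM, and 3.30 and 3.61 with DM+Met on the log2 scale. With 6 libraries in 3 media and 7469 candidates, correlations near 1 arise readily, and nothing is said here of shared control.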

How the data were processed

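RNA from activated CD4 T cells was sequenced in 6 libraries, 2 for each of 3 media. The labels name 1 sample per medium with 2 numbered files, which the study's description of 2 independent samples led to be taken as replicates. P-values therefore measure the spread between these files. Per the labels, the authors used Bowtie2, bedtools and mm10 (no versions given). The annotation and the strand setting are not given in the sources used here. The values the authors deposited are log2 values of TMM-scaled CPM plus 1. TMM and CPM are named by the study, while the logarithm and its offset of 1 follow from equal steps in the values. At up to 300 reads, at least 99.776% of values lay within 0.1 of a whole read.

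Rows with at least 0.951 CPM (10 reads at the median depth) in 2 libraries and 15 reads in all were tested, 12770 of 23282. The fit was limma 3.58.1 in R 4.3.3 with an intensity trend, all 6 libraries sharing 1 variance (6.87 prior degrees of freedom), two-sided, with Benjamini-Hochberg adjustment over all tested rows. On simulated data with 200 changed genes, 196 were found, beside 14 false calls. The changed genes were drawn from better-read rows. The size of their change and the spread between libraries were fixed values, not estimated from these data. This recovery therefore does not give the power for these libraries, or for sparsely read members such as Il4, Il5 and Ccr8. A chi-square test of the reads of each pair of libraries gave 18.2 to 35.9 per degree of freedom, so no pair was the same library within counting noise, which does not show separate cultures. Libraries of the same number showed no shared deviation (correlations of deviations from −0.03 to 0.00). The labels do not say whether the numbers pair samples, and these correlations cannot settle it.

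The members and lists were chosen with earlier results of these data known. The genes named are the members, up to 4 called genes per list with the greatest difference between DM and CM and up to 2 between DM+Met and DM, the 2 most abundant per list, the called neighbours, and the genes most like the members by Pearson r. Stat6, Maf, Il6, Il1rap, Ccr4, Star, Fdx1, Fdxr, Akr1c18, Hsd11b1, Foxp3, Rad50, Irf1, Fcmr, Il18r1 and genes given only as called or unread were added after their values were seen. Promoter windows came from RefSeq on GRCm38.p6. Alternatives varied the scaling, filter, pseudocount (1), test, libraries fitted, variance trend, library number as a block, and left out each library in turn.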

Additional observations from a re-analysis of the deposited data

How the results depend on the processing

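The number of members called between DM and CM, 2 in the fit reported, was 1 when at least 10 reads in every library were required. That filter removed Cyp11a1 and Il24 and left Gata3, Il13, Il1rl1 and Il4ra, and the call was Il4ra. With a pseudocount of 5 the count was 3, all lower in DM. The count ranged from 1 to 2 over the fits without 1 library. Between DM+Met and CM it was 3, and 1, again Il4ra, under the same filter. Pathway genes called between DM and CM numbered 41, and 23 without the intensity trend, 19 when only the 2 media compared were fitted, and 12 to 22 without 1 library. Between DM+Met and CM they numbered 38, and 20 without the trend and 8 to 33 without 1 library. Between DM+Met and DM the count was 0, and 2 with library totals, 1 with at least 10 reads in every library and 2 with limma-voom. Neighbours called between DM and CM numbered 6, and 3 without the trend and 0 to 4 without 1 library. Fits without 1 library, or of 2 media alone, have fewer residual degrees of freedom. For the other changes the cause was not tested. No sign changed among the called members, or among the called and named pathway and neighbour genes, which were recomputed for DM against CM alone. The library number was also fitted as a replicate block, although no pairing by number is stated. In that fit the members called in DM against CM, DM+Met against DM and DM+Met against CM numbered 2, 0 and 2. The pathway genes called numbered 38, 0 and 35, and the neighbours called between DM and CM numbered 6. The median of all genes between DM+Met and DM was 0.01 with TMM and 0.34 with library totals, and between DM and CM it was 0.07 and, with totals that leave out Rn45s, 0.21. Depth limits Il4, Il5 and Ccr8 most, each with at most 41 reads in any library.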
